A study of Mus musculus with 6 samples.

Results

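The proteasome is the barrel-shaped protease that degrades ubiquitin-tagged proteins in the cytoplasm and nucleus of every cell. Its genes were taken as those whose mouse symbol is Psma, Psmb, Psmc, Psmd, Psme, Psmf or Psmg followed by a number. The rule found 48 of the 55416 genes counted: 8 genes of 20S alpha subunits, 11 of 20S beta subunits, 6 of 19S ATPases, 14 of 19S non-ATPase factors, 4 of activators and 5 of an inhibitor and assembly factors. Among them, 31 encode the constitutive subunits of the 20S and 19S particles and are called core subunits here.

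RNA was measured in oligodendrocyte precursor cells (OPCs), the dividing cells of the brain that give rise to myelinating oligodendrocytes, from mouse cortex at postnatal day 11. In the 3 samples named cKO, both Ift88 alleles were floxed (Pdgfra-Cre:Ift88 fl/fl; RosaEYFP). In the 3 samples named control, 1 allele was wild type (Pdgfra-Cre:Ift88 fl/wt; RosaEYFP), so the controls also carried Cre, the reporter and 1 floxed allele. Pdgfra marks OPCs but is also active in mesenchymal cells, so deletion depends on where and when the promoter drove Cre. Each sample pooled 4 to 6 mice and the labels do not say whether pools shared litters, so p-values measure the spread between these pools, which may be partly technical. Ift88 encodes a protein that builds the primary cilium, and the study asked how OPCs change when cilia are lost.

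Total counts were 13909236, 568509 and 11773548 in cKO replicates 1 to 3, and between 12756650 and 13652035 in the controls. cKO replicate 2 therefore stands apart, and the genes called by the main test (edgeR) are given with and without it. The other tests (DESeq2 and limma-voom) used all 6 libraries, and some fold changes are given without cKO replicate 2 only. The other 5 libraries are called the deeper libraries. Ift88 itself had 1, 0 and 305 counts in cKO replicates 1 to 3, against 143, 32 and 167 counts in control replicates 1 to 3. The tags lie at the 3′ end of the transcript and the floxed exons of this allele near its start, so these counts do not check the deletion. The 12 OPC markers summed to 194, 7.04 and 183 CPM (a gene's counts scaled to a common library total) in cKO replicates 1 to 3, and to 315, 465 and 205 CPM in the controls. Most of these counts in each deeper library came from Ptprz1 and C1ql1. C1ql1 had 282, 1 and 343 counts in cKO and 1256, 3784 and 1825 in control. Pdgfra did not follow the sum, with 155, 0 and 121 counts in cKO and 0, 59 and 56 in control. Olig1 and Olig2 were counted in cKO replicate 3 alone, with 32 and 67 counts. Of the 12 markers, 5 had no count in any library, among them Sox10 and Gpr17. The 9 neuronal markers summed to 5854, 1639 and 6129 CPM in cKO replicates 1 to 3 and to 5710, 4867 and 1641 CPM in the controls, above the OPC sum in every library. Most of these counts came from Tubb3 and Stmn2. Gad1 had 0 counts in every cKO library and 992, 901 and 61 in control. Dcx went the other way, with 9539, 5 and 7310 counts in cKO and 2698, 1882 and 548 in control. The 6 astrocyte markers were also above the OPC sum, at 754, 682.5 and 553 CPM in cKO and 792, 1090 and 609 CPM in control. In cKO replicate 2 the astrocyte sum came from Slc1a3 alone. The transthyretin gene Ttr, made by choroid plexus epithelium, took 5224, 26120 and 6756 counts in cKO replicates 1 to 3 and 343, 94 and 2 counts in the controls. The other 4 choroid plexus markers did not follow it: all had 0 counts in cKO replicate 2, Kl had none in any library, and Aqp1 had 972, 0 and 683 counts in cKO and 2535, 717 and 172 counts in the controls. The part of other cells in the proteasome values was not tested, and in bulk RNA fewer cells of a type and less RNA per cell cannot be told apart.

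The proteasome is built from a 20S barrel and a 19S cap. The outer alpha rings of the barrel gate its entry and the inner beta rings cut the substrate. In the cap, a ring of ATPases unfolds the substrate, while the non-ATPase factors bind ubiquitin chains, remove them and hold the cap together. Because each core subunit occurs in fixed numbers per particle, its genes are textbook examples of coordinately expressed housekeeping genes.

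Most core subunits lay within a narrow band of abundant RNAs in the deeper libraries. A 3′ tag is counted once per transcript whatever its length, so the CPM of different genes can be set side by side without a length correction. Averaged over the 5 deeper libraries, 23 of 31 core subunits lay between 100 and 400 CPM, 3 above and 5 below, with a median of 202.5 CPM. The 3 highest were Psmb4 at 675, Psma7 at 576 and Psma6 at 460 CPM. The 6 ATPase genes were the closest together, from 133 CPM for Psmc6 to 254 CPM for Psmc3.

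**Figure D1:**
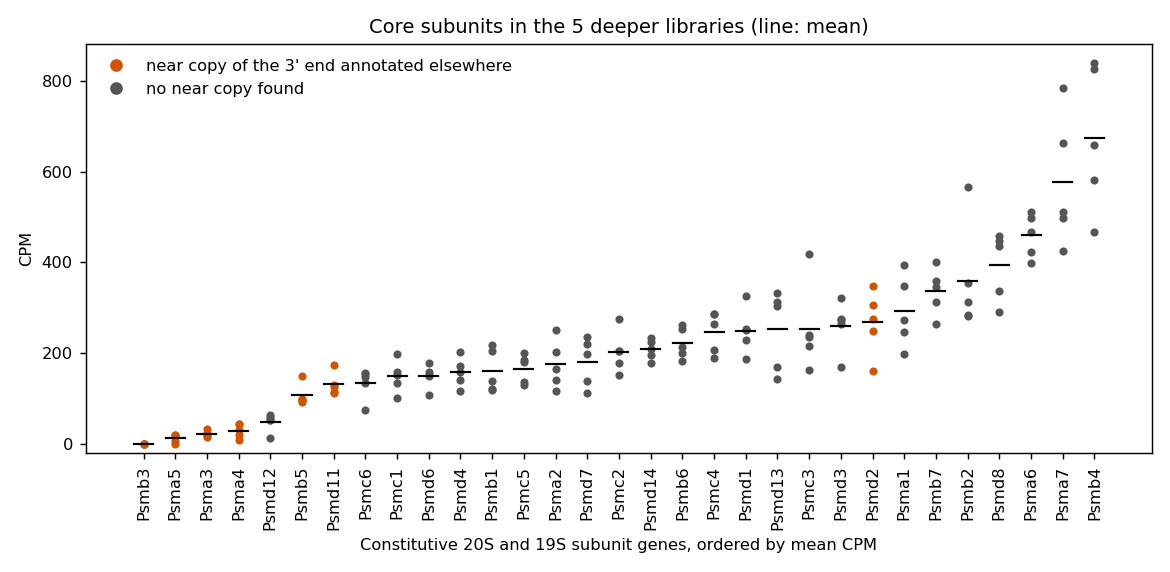
CPM of each core subunit gene (x axis, ordered by mean) in the 5 deeper libraries (points), with their mean as a line; orange points are genes with an annotated near copy of their 3′ end. The 4 lowest genes all have such a copy, and 23 of the 31 means lie between 100 and 400 CPM.

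The 5 core subunits below 100 CPM were Psmb3, Psma5, Psma3, Psma4 and Psmd12. Psmb3, an obligate non-catalytic beta subunit, had 0 counts in all 6 libraries, where 0 allows up to 0.216 to 0.255 CPM in the deeper libraries. Psma5 averaged 12.6, Psma3 22.1 and Psma4 29.1 CPM over the deeper libraries, and Psmd12, a lid subunit, 48.6 CPM. The 4 lowest genes, but not Psmd12, are among the 7 core subunits for which another annotated gene holds a near copy of the last 300 transcript bases (at least 97% identity over at least 75 bases).

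The copies are mostly processed pseudogenes, and they took counts of their own. Gm6542, the copy of Psma4, had 823, 2 and 814 counts in cKO replicates 1 to 3 and 679, 1362 and 1433 counts in the controls. Psma4 itself had 116, 0 and 227 counts in cKO and 404, 562 and 598 counts in control. AC108910.1, a copy of Psmb3, had 526, 2 and 403 counts in cKO and 404, 891 and 934 counts in control. Both parent genes were thus below these copies in all 6 libraries, though in cKO replicate 2 none of the 4 genes had more than 2 counts. Reads that align to both a gene and its copy were left out of the deposited counts by default; their part in the low values was not tested. With copies added, Psma4 came to 67.5, 3.52 and 88.4 CPM in cKO replicates 1 to 3 and to 79.3, 151 and 150 CPM in control, and Psmb3 to 38.1, 3.52 and 34.8 CPM in cKO and 29.7, 72.3 and 69.4 CPM in control.

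The last 60 coding bases of Psma3 and Psma5 are shown with those of their copies as an example. Whether tags fall in this stretch was not tested. Over the transcript end searched for copies, Gm13835 aligned to Psma3 over 190 bases at 100% identity and Gm4742 over 190 bases at 97.9%. For Psma5, Gm12989 aligned over 138 bases at 100% identity and Gm8394 over 283 bases at 97.2%. None of these alignments covered the whole searched end. Sequences are from GENCODE M21 on GRCm38, 5′ to 3′, capitals mark a base that differs from the parent, and positions count from 1 at the left. The Psma3 gene lies on the plus strand at chr12:70974621-70996347, Gm13835 on the minus strand at chr6:31141979-31142663 and Gm4742 on the minus strand at chr14:52368918-52369688.
Psma3: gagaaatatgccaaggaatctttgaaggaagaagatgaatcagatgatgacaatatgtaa
Gm13835: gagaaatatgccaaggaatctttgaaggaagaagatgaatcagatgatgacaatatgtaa
Gm4742: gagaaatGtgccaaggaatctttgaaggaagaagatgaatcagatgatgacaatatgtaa
Gm13835 has 0 mismatches in this stretch and Gm4742 has 1 (A8G). Psma3 had 216, 246 and 392 counts in cKO replicates 1 to 3 and 282, 205 and 335 in control. Gm13835 had 415, 0 and 118 counts in cKO and 133, 255 and 124 in control. Gm4742 had 113, 0 and 117 counts in cKO and 6, 99 and 79 in control. A further copy, Gm5406, is not shown and had at most 3 counts in a library.

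The Psma5 gene lies on the plus strand at chr3:108256926-108279974, Gm12989 on the minus strand at chr4:135715868-135716598 and Gm8394 on the plus strand at chr10:85313488-85314439 of the same build.
Psma5: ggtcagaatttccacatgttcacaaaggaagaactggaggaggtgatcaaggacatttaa
Gm12989: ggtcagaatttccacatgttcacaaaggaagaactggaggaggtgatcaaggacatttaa
Gm8394: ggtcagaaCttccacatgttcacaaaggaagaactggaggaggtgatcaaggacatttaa
Gm12989 matches Psma5 at all 60 bases and Gm8394 has 1 difference (T9C). Gm12989 had 4, 0 and 271 counts in cKO replicates 1 to 3 and 458, 246 and 469 in control. Gm8394 had 158, 1 and 82 counts in cKO and 241, 14 and 491 in control.

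Evenness between subunits was measured as the standard deviation (SD) of log2(CPM + 1) over the core subunits of a library. Over all 31 it was 2.11 and 1.87 in cKO replicates 1 and 3 and 1.83 to 1.95 in the 3 controls. Over the 24 core subunits without a near copy it was 0.761 and 0.735 in cKO replicates 1 and 3 and 0.797 to 1.16 in the controls. On the first measure cKO replicate 1 was above the controls and cKO replicate 3 among them, and on the second both were just below the controls; no test was made on this summary of the members. The 8 subunits of the CCT chaperonin, a ring that folds actin and tubulin, had an SD of 0.384 to 0.721 in the deeper libraries. The 14 constitutive subunits of the V-ATPase, the proton pump of lysosomes, had 1.06 to 1.36.

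The order of the core subunits was much the same in the 5 deeper libraries. Spearman's rho between library pairs over the 31 genes was 0.809 to 0.909 for the 10 pairs of deeper libraries (median 0.877), and 0.312 to 0.386 for the 5 pairs that include cKO replicate 2. These correlations describe genes of libraries that share one protocol and carry no p. Between controls, the median coefficient of variation was 13.0% for the CCT subunits and 23.2% for the V-ATPase subunits. It was 25.6% for all 2074 tested genes at 100 CPM or more in controls, and 51.0% for all tested genes. For the 30 core subunits with a count it was 19.3%. Across the 5 deeper libraries the highest value was under 2-fold the lowest for 19 of these 30 genes and under 3-fold for 27.

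**Figure D2:**
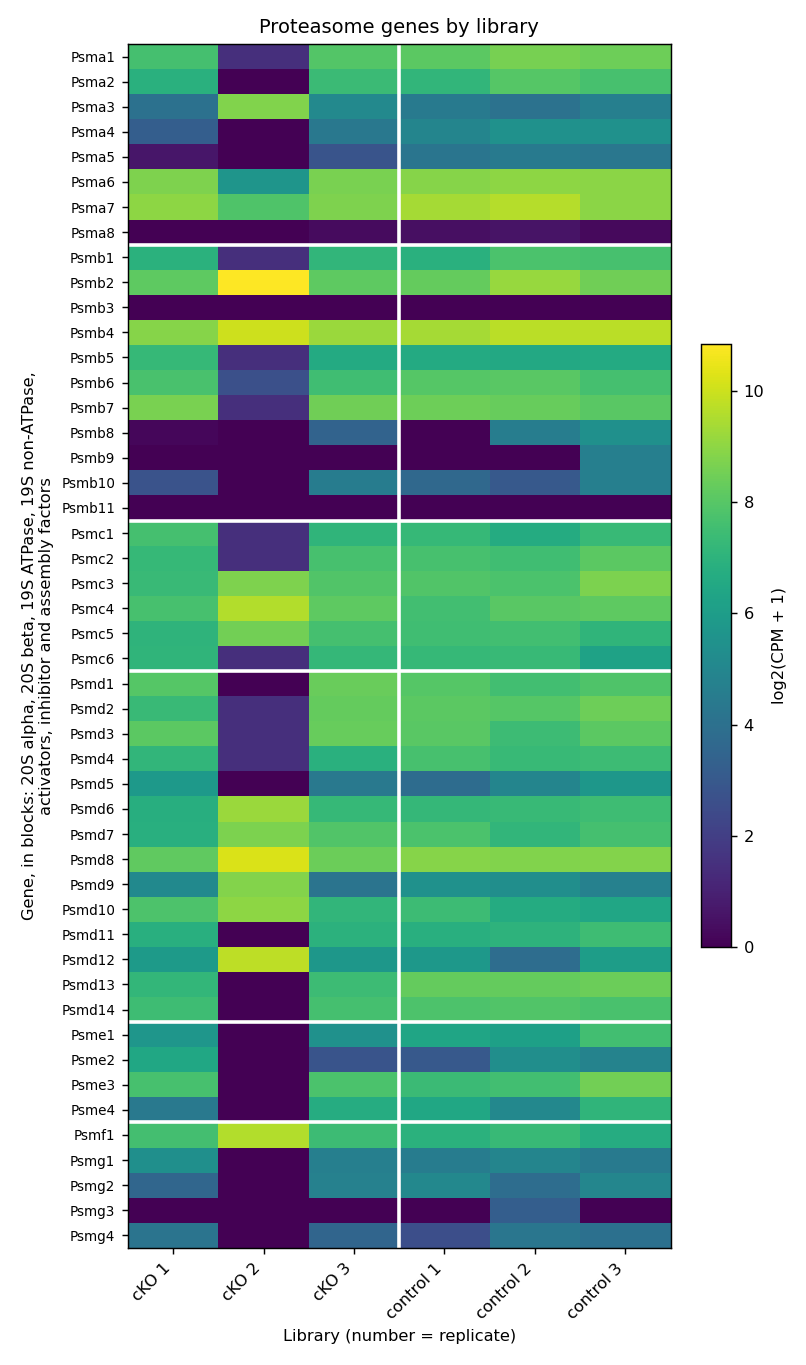
log2(CPM + 1) (colour) of all 48 proteasome genes (rows, in blocks by class) in the 3 cKO and 3 control libraries (columns). The 5 deeper libraries show the same banding, whereas in cKO replicate 2 most genes are at 0 or 1 count and 15 are at 20 counts or more.

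Summed over all 48 genes, proteasome RNA made up 6669, 9940 and 7285 CPM in cKO replicates 1 to 3 and 7801, 8336 and 8705 CPM in the controls. The means were 7965 ± 1738 CPM in cKO and 8281 ± 454 CPM in control (SD, n = 3 each), a ratio of 0.962. cKO replicate 2 was the highest of the 6 libraries, and replicates 1 and 3 were the lowest 2. cKO replicates 1 and 3 averaged 6977 CPM, 15.7% below the control mean, and the groups did not overlap. In the same deeper libraries, the summed CCT genes were 8.83% below control in cKO replicates 1 and 3 and the V-ATPase genes at 1.07 times control.

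**Figure D3:**
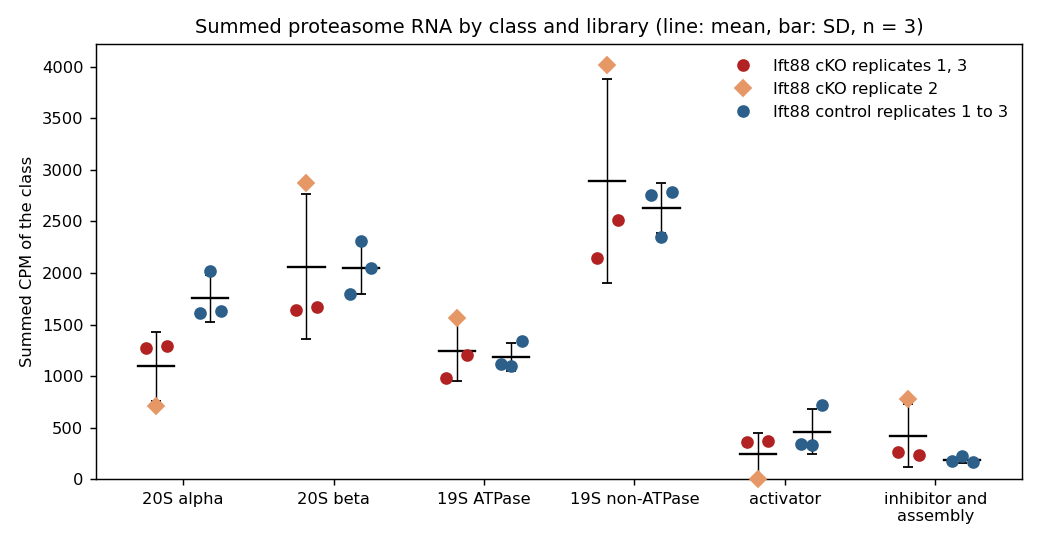
Summed CPM (y axis) of each proteasome class by library, with cKO left of control; points are libraries, the diamond is cKO replicate 2, lines are means and bars are SD (n = 3). The 20S alpha sum is below all controls in each cKO library, and the beta sum is below them in cKO replicates 1 and 3. cKO replicate 2 is the highest library for the beta, ATPase, non-ATPase and inhibitor and assembly sums and is at 0 for activators.

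Across single genes, 43 of the 48 passed the filter on low counts, and none of them differed between cKO and control past the threshold. With all 6 libraries, the quasi-likelihood test of edgeR called 0 of 43 higher and 0 of 43 lower at an adjusted p (Benjamini-Hochberg over all genes) under 0.05. It called 0.00779% of the 12833 genes tested higher and 0.00779% lower, 1 gene each. At an unadjusted p under 0.05, edgeR also called 0 of the 43 in either direction, against 1.3% of all genes higher and 1.53% lower. After adjustment, DESeq2 called 0 of the 43, against 0.0545% of all genes higher and 0.405% lower. By limma-voom, too, 0 of the 43 passed, against 0.0468% of all genes higher and 0.0156% lower. At an unadjusted p under 0.05, DESeq2 called 5 higher (Psma3, Psmd9, Psmd10, Psmd12 and Psmf1, 11.6%, against 3.98% of all genes) and 0 lower (against 2.33% of all genes), and limma-voom 0 higher (against 1.54%) and 1 lower (Psmb4, 2.33%, against 3.77%). The 5 genes not tested were Psma8, Psmb3, Psmb9, Psmb11 and Psmg3.

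Leaving out cKO replicate 2, edgeR again called 0 of 43 in either direction after adjustment, with 0.0% of 14562 genes called higher and 0.00687% lower. At an unadjusted p under 0.05, 0 proteasome genes were higher, against 3.06% of all genes, and 2 were lower (Psmd13 and Psme1, 4.65%, against 3.03% of all genes). The median log2 fold change of the 43 genes was -0.44 with all 6 libraries, where it was also -0.44 for all genes tested. Without that library it was -0.24 for the proteasome genes and -0.06 for all genes tested. Fitted values below 0 were found for 31 of 43 (72.1%, against 66.3% of all genes) with all libraries and for 28 of 43 (65.1%, against 52.1%) without cKO replicate 2. The median log2 ratio of mean CPM + 1, cKO replicates 1 and 3 over control, was -0.05 for the 12830 tested genes with a control count. Of these genes, 52.4% lay below 0. For the 2074 tested genes at 100 CPM or more in controls, the values were -0.20 and 64.0%. That set was picked by control values alone, which by itself favours ratios below 0, so it is no neutral background. For the 46 proteasome genes with a control count, which include genes under 100 CPM, the values were -0.27 and 69.6%. For the 30 core subunits with a count they were -0.29 and 73.3%. By class, the median fold change without that library was -0.48 for the 7 alpha genes tested, -0.36 for 8 beta genes, 0.00 for the 6 ATPases, -0.22 for the 14 non-ATPase genes, -0.30 for the 4 activators and 0.29 for 4 inhibitor and assembly genes.

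Groups that did not overlap were counted as a further description. With all 6 libraries, 8 of 43 genes were lower in every cKO library than in every control (18.6%, against 11.1% of all genes tested) and 1 was higher (2.33%, against 1.33%). Without cKO replicate 2, 11 of 43 were lower (25.6%, against 12.6%) and 5 were higher (11.6%, against 13.0%). The 11 were Psma1, Psma4, Psma5, Psma6, Psmb2, Psmb4, Psmd4, Psmd8, Psmd13, Psmd14 and Psme1, and the 5 were Psmb5, Psmb7, Psmd1, Psmd3 and Psmf1.

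**Figure D4:**
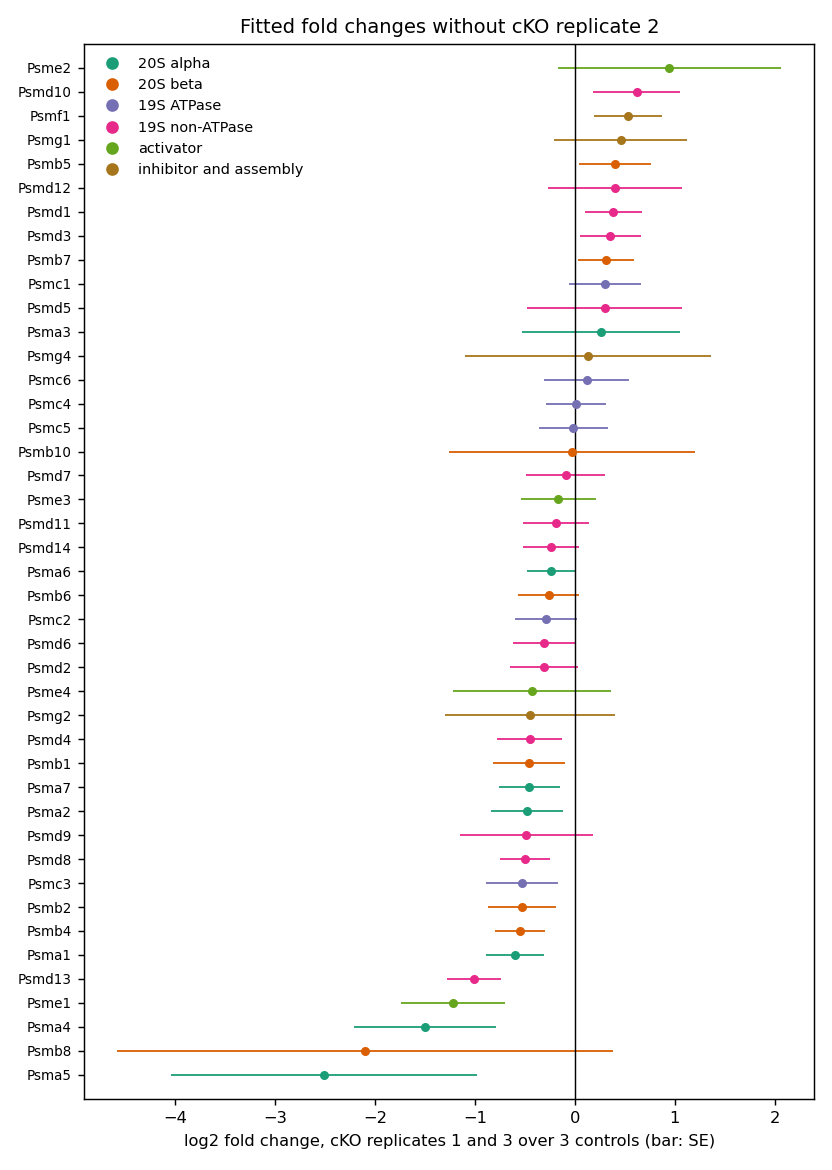
Fitted log2 fold change (x axis, cKO replicates 1 and 3 over the 3 controls) of the 43 proteasome genes tested, coloured by class, with bars of 1 standard error. Of these, 28 lie below 0 and 15 above, and the widest bars belong to genes with few counts such as Psmb8 and Psma5.

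The 20S alpha genes, whose products form the gated outer rings, had a sum below every control in each cKO library. This alpha sum came to 1274, 712 and 1297 CPM in cKO replicates 1 to 3 and 1613, 2020 and 1635 CPM in the controls. The groups did not overlap, and without cKO replicate 2 the cKO mean was 26.8% below the control mean. In cKO replicates 1 and 3 the 20S beta sum was also below every control, with a mean 19.3% below the control mean. Only cKO replicate 2 thus set the alpha class apart from the beta class. In cKO replicate 2, 4 of the 7 constitutive alpha genes were at 0 or 1 count. Most of all proteasome genes were too, so low values in that library add little. Of the 7 constitutive alpha genes, 6 had a fitted fold change below 0 both with and without cKO replicate 2, Psma3 being the exception.

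Psma5 (GRCm39 chromosome 3, 108164242 to 108187290) had 8, 0 and 72 counts in cKO replicates 1 to 3 and 240, 257 and 255 counts in control. The controls were close together and all cKO libraries were below them, though the 0 in cKO replicate 2 adds little. The fitted difference by edgeR was -2.99 on the log2 scale (SE 2.20, adjusted p = 1) with all libraries and -2.51 (SE 1.53, adjusted p = 0.869) without cKO replicate 2. Without cKO replicate 3 it was -5.41 (adjusted p = 0.400), so its size depends on that library. Psma4 stood at 8.34, 0 and 19.3 CPM in cKO replicates 1 to 3 and at 29.6, 44.1 and 44.1 CPM in control, a fold change of -1.50 on the log2 scale without cKO replicate 2 (SE 0.71, edgeR adjusted p = 0.767). Both genes have near copies, so their values cover only the reads that aligned uniquely. With the copy added, Psma4 averaged 78.0 CPM in cKO replicates 1 and 3 and 126.6 CPM in control, a smaller difference, and cKO replicate 3 was above control replicate 1, so the groups overlapped. The copies added to Psma5 left both deeper cKO libraries, at 12.2 and 36.1 CPM, below the controls at 68.8, 40.5 and 89.6 CPM.

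Psma1 and Psma6 have no near copy. Psma1 stood at 197, 1.76 and 247 CPM in cKO replicates 1 to 3 and 274, 394 and 348 CPM in control. Psma6 stood at 424, 49.2 and 400 CPM in cKO and 468, 511 and 499 CPM in control. Neither pair of groups overlapped, but the gap for Psma6 was small: without cKO replicate 2 its log2 fold change was -0.24 (SE 0.24). Psma7, the highest of the class, stood at 511, 229 and 426 CPM in cKO replicates 1 to 3 and 663, 784 and 498 CPM in control, with overlap. The testis-specific Psma8 was nearly absent, with 0, 0 and 3 counts in cKO and 5, 6 and 3 in control.

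The 20S beta sum was 1644, 2871 and 1671 CPM in cKO replicates 1 to 3 and 1799, 2310 and 2050 CPM in the controls. Its 3 proteolytic subunits had values on both sides of the controls. Psmb5, which cuts after hydrophobic residues, stood at 150, 1.76 and 98.0 CPM in cKO replicates 1 to 3 and 96.5, 92.3 and 96.7 CPM in control. Psmb7, which cuts after basic residues, stood at 401, 1.76 and 358 CPM in cKO and 347, 313 and 264 CPM in control. In cKO replicates 1 and 3 both were above every control, with log2 fold changes of 0.40 (SE 0.36) and 0.31 (SE 0.28). Gm3375, a near copy of Psmb5, had 1174, 0 and 996 counts in cKO and 745, 661 and 894 counts in control. Psmb6, which cuts after acidic residues, stood at 213, 5.28 and 183 CPM in cKO and 254, 263 and 200 CPM in control, where the groups overlapped. Exons of Nek6 cover 81.0% of the last 500 exon bases of Psmb7. Unstranded counting cannot assign reads in that stretch to Psmb7 alone, and whether they were left out or counted was not tested.

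The structural beta subunits Psmb4 and Psmb2 were among the most abundant members. Psmb4 (chromosome 3, 94791404 to 94794272) stood at 468, 1038 and 581 CPM in cKO replicates 1 to 3 and 660, 826 and 840 CPM in control. Psmb2 stood at 284, 1822 and 281 CPM in cKO and 312, 567 and 354 CPM in control. In both, cKO replicates 1 and 3 were below every control and cKO replicate 2 was above every control. Fitted without cKO replicate 2, the log2 fold changes were -0.55 (SE 0.25, edgeR adjusted p = 0.767) for Psmb4 and -0.53 (SE 0.34, edgeR adjusted p = 0.883) for Psmb2, whereas with it that of Psmb2 was 0.88 (SE 0.84).

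The immunosubunits Psmb8, Psmb9 and Psmb10 replace the proteolytic subunits in immune cells and after interferon. They were low and uneven between libraries. Psmb8 had 2, 0 and 117 counts in cKO replicates 1 to 3 and 0, 291 and 578 counts in control. Psmb9 had 0 counts in every cKO library and in control replicates 1 and 2, and 335 counts in control replicate 3. Psmb10 had 81, 0 and 260 counts in cKO and 157, 90 and 335 counts in control. All 3 were highest in control replicate 3. The 6 microglia and immune markers summed to 0, 0 and 5.10 CPM in cKO replicates 1 to 3 and to 0, 0 and 8.03 CPM in control replicates 1 to 3, the last from Ptprc alone. Of the 6, Cx3cr1, Aif1 and C1qa had no count in any library. Their part in the immunosubunit values was not tested. The thymus-specific Psmb11 had 0 counts in all 6 libraries.

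The 19S ATPases, the motor of the cap, had fitted fold changes on both sides of 0. Their sum was 981, 1562 and 1204 CPM in cKO replicates 1 to 3 and 1118, 1100 and 1346 CPM in control. Over the 5 deeper libraries the 6 fitted log2 fold changes ran from -0.53 for Psmc3 to 0.30 for Psmc1, 3 below and 3 above 0. Psmc3 stood at 162, 422 and 235 CPM in cKO and 240, 215 and 418 CPM in control, and Psmc6 at 133, 1.76 and 146 CPM in cKO and 154, 157 and 74.4 CPM in control. For all 6 genes the groups overlapped.

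The 19S non-ATPase genes summed to 2145, 4019 and 2514 CPM in cKO replicates 1 to 3 and 2752, 2348 and 2787 CPM in control. Psmd13, a lid subunit, had the smallest unadjusted p of the class without cKO replicate 2. Psmd13 (chromosome 7, 140461881 to 140478556) had 1980, 0 and 1998 counts in cKO replicates 1 to 3 and 4265, 3874 and 4517 counts in control. In CPM these were 142, 0 and 170 in cKO and 312, 304 and 333 in control, so cKO replicates 1 and 3 were close together, as were the controls, and the groups did not overlap. The edgeR fit without cKO replicate 2 gave a log2 fold change of -1.01 (SE 0.27, unadjusted p = 0.00622, adjusted p = 0.767 over 14562 genes). With all libraries it was -1.60 (SE 1.37, edgeR adjusted p = 1). Values were lower in 2 of 2 deeper cKO libraries, and the difference did not pass the correction. The 0 in cKO replicate 2 adds little, since Psmd1, which was not lower in the other cKO libraries, was also at 0 there.

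The deubiquitinase subunit Psmd14 and the ubiquitin receptor Psmd4 also had lower values in every cKO library than in every control, by less. Their counts in cKO replicate 2, 0 and 1, add little, as for Psmd13. Psmd14 stood at 178, 0 and 197 CPM in cKO replicates 1 to 3 and 224, 233 and 209 CPM in control, and Psmd4 at 140, 1.76 and 116 CPM in cKO and 202, 158 and 172 CPM in control. The large scaffold subunit Psmd1 had values at or above the controls in cKO replicates 1 and 3. It stood at 252, 0 and 326 CPM in cKO and 252, 188 and 229 CPM in control (log2 fold change 0.38, SE 0.28, without cKO replicate 2). Exons of Gm21972 cover 60.2% of the last 500 exon bases of Psmd1. Psmd8, the highest of the class, stood at 291, 1182 and 336 CPM in cKO and 459, 436 and 447 CPM in control, so that cKO replicate 2 was above the controls and the other two cKO libraries below.

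Psmd12, Psmd10 and Psmd9 were highest in cKO replicate 2. Psmd12 had 830, 488 and 621 counts in cKO replicates 1 to 3 and 730, 172 and 861 counts in control; its CPM was 59.7, 858 and 52.8 in cKO and 53.5, 13.5 and 63.5 in control. Psmd9, a chaperone of cap assembly, stood at 34.6, 454 and 16.7 CPM in cKO and 43.8, 39.7 and 25.7 CPM in control. Psmd10, another assembly chaperone that is also called gankyrin, stood at 220, 514 and 141 CPM in cKO and 170, 101 and 83.8 CPM in control. The other 2 cKO libraries were among or below the controls for Psmd12 and Psmd9, and cKO replicate 1 alone was above them for Psmd10. The log2 fold change of Psmd12 was 2.84 (SE 1.54, edgeR adjusted p = 1) with all libraries and 0.40 (SE 0.68) without cKO replicate 2; that of Psmd9 was 2.12 and -0.49, and that of Psmd10 1.25 and 0.62. These values depend on the scaling as well: with all libraries that of Psmd12 was 4.23 under RLE scaling and 7.90 under upper-quartile scaling, and 1.11 in limma-voom.

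The activators are alternative caps that open the barrel. They summed to 363, 0 and 368 CPM in cKO replicates 1 to 3 and 340, 331 and 717 CPM in control. Psme1, which builds the interferon-inducible activator ring together with Psme2, stood at 51.1, 0 and 43.1 CPM in cKO and 80.4, 69.9 and 188 CPM in control. All cKO libraries were below all controls, though the 0 in cKO replicate 2 adds little. Control replicate 3 was far above control replicates 1 and 2. Its log2 fold change without cKO replicate 2 was -1.22 (SE 0.52, unadjusted p = 0.0486, adjusted p = 0.767 by edgeR's test). Its partner Psme2, which has a near copy in Psme2b, stood at 86.6, 0 and 5.95 CPM in cKO and 7.25, 39.8 and 27.8 CPM in control, without a common direction. Psme3, which forms a nuclear activator, was the highest of the class at 205, 0 and 214 CPM in cKO and 167, 188 and 367 CPM in control.

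Psmf1, an inhibitor of the 20S particle in biochemical assays, was the gene with higher values in all 3 cKO libraries than in all 3 controls. Psmf1 (chromosome 2, 151557732 to 151586106) had 2702, 441 and 2011 counts in cKO replicates 1 to 3 and 1633, 2018 and 1413 counts in control, or 194, 776 and 171 CPM in cKO and 120, 158 and 104.1 CPM in control. The gap between the lowest cKO and the highest control library was small beside the spread within groups. Its log2 fold change was 1.52 (SE 1.27, edgeR adjusted p = 1) with all libraries and 0.53 (SE 0.34, edgeR adjusted p = 0.883) without cKO replicate 2. The 20S assembly chaperones Psmg1, Psmg2 and Psmg4 averaged 27.5, 22.8 and 13.1 CPM over the deeper libraries and had 0 counts in cKO replicate 2. Psmg3, their partner, was counted in control replicate 2 alone, with 109 counts.

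In cKO replicate 2 the summed level was high, but few of the genes carried it. Of its 48 proteasome genes, 22 had 0 counts, 10 had 1 count, 1 had between 2 and 19 and 15 had 20 or more. At the mean control CPM and the depth of this library, 30 of 31 core subunits were expected at 10 counts or more. Of these, 17 were observed at 0 or 1 count, 10 above their expectation and 3 between. The sum over the core was 4660 counts against 4204 expected. Each deeper library, scaled to the depth of cKO replicate 2, still had 29 or 30 core subunits at an expected 3 counts or more.

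The subunits on each side were spread over the particle. Psmd13, Psmd14, Psmd1 and Psma2 had 0 counts where 180, 126, 127 and 113 were expected, whereas Psmd12 had 488 counts where 24.7 were expected and Psma3 246 where 11.6 were expected. In the ATPase ring, Psmc3, Psmc4 and Psmc5 had 240, 436 and 209 counts, and Psmc1, Psmc2 and Psmc6 had 1 count each. The 3 highest core subunits, Psmb2, Psmd8 and Psmb4, held 49.3% of the core counts (95% Wilson interval 47.9% to 50.8%, which covers counting error only). The 3 highest held 24.5% (24.2% to 24.8%) in cKO replicate 1 and 21.7% (21.4% to 22.0%) in cKO replicate 3. They held 25.4% (25.2% to 25.7%), 28.7% (28.5% to 29.0%) and 24.3% (24.0% to 24.5%) in control replicates 1 to 3, so cKO replicate 2 lay outside the range of the others.

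**Figure D5:**
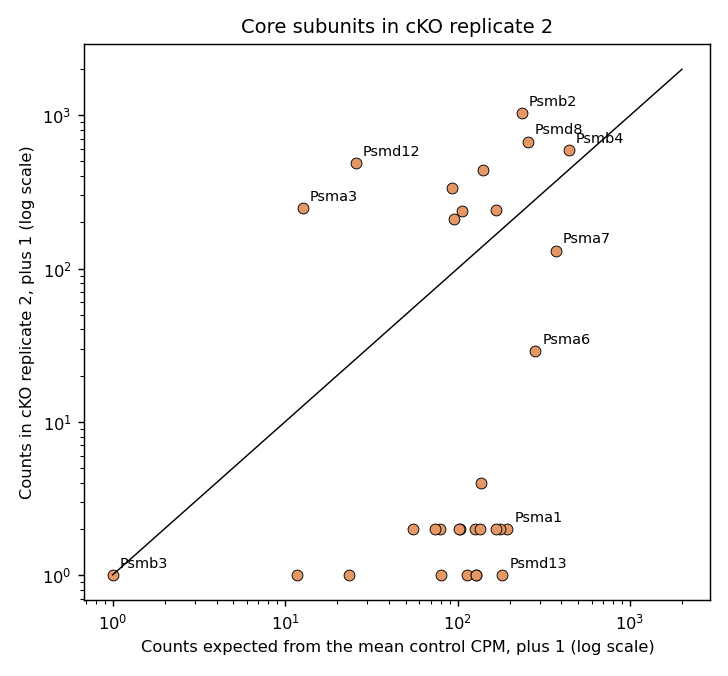
Counts of the 31 core subunit genes in cKO replicate 2 (y axis, plus 1, log scale) against the counts expected at the mean control CPM and the depth of that library (x axis, plus 1, log scale); the line marks equality. Of the genes expected at 10 counts or more, 17 lie at 0 or 1 count and 10 above the line.

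The same gaps were present in other complexes of that library. Of the 8 CCT subunits, 3 had 20 counts or more in cKO replicate 2, and of the 14 V-ATPase subunits 1 did, against all 8 and all 14 in each deeper library. The SD of log2(CPM + 1) in cKO replicate 2 was 4.13 over the core proteasome, 4.24 over CCT and 2.42 over the V-ATPase.

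Proteasome genes are known targets of Nfe2l1, a transcription factor that is itself released when proteasome activity falls and that binds antioxidant response elements. A script searched the 250 bases before the start of each gene for TGACNNNGC on both strands in RefSeq sequences of GRCm38.p6. The motif was found for 5 of the 40 members with a sequence (12.5%) and for 11.52% of the 27025 genes with one; the 5 are Psmb5, Psmb6, Psmc6, Psmd9 and Psmd12. CCAAT was found for 14 of the 40 (35.0%), against 37.49% of all genes. None of the 5 genes with the first motif holds the second. Both shares lie near those of all genes, and a match is not a bound site. Without cKO replicate 2, the 2 proteolytic subunit genes with a match had fitted fold changes of unlike sign. Neither passed the test, and Psmb6 overlapped the controls. The sequences before these genes are shown with the match in capitals. They lie at chr14:54617996-54618245 on the minus strand for Psmb5 and at chr11:70525107-70525356 on the plus strand for Psmb6.
Psmb5: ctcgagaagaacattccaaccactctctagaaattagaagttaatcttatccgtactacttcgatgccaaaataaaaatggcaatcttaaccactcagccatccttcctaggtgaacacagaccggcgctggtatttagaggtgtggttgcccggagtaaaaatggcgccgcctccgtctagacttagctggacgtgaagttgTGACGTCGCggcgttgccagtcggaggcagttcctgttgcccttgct
Psmb6: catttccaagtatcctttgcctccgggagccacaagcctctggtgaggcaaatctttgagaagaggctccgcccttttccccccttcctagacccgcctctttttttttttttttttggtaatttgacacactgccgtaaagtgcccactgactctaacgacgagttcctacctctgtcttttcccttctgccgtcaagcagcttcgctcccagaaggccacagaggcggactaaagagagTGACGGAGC
The match begins 47 bases before the annotated start in Psmb5 and 9 bases before it in Psmb6. Among the 5 genes with a match, the log2 fold change without cKO replicate 2 was 0.40 for Psmb5, -0.26 for Psmb6, 0.12 for Psmc6, -0.49 for Psmd9 and 0.40 for Psmd12, with no common direction.

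The genes that work beside the proteasome were listed as 28 genes of ubiquitin supply, shuttling and proteasome regulation, of which 27 passed the filter. By edgeR 0 of 27 passed in either direction after adjustment, with and without cKO replicate 2 (against at most 0.00779% of all genes). With all libraries, 0 of 27 passed in DESeq2 (against 0.0545% of all genes higher and 0.405% lower). With the same libraries limma-voom called 1 higher, Uba1 (against 0.0468%), and 0 lower (against 0.0156%). At an unadjusted p under 0.05, edgeR called 0 of 27 with all libraries (against 1.3% of all genes higher and 1.53% lower). Without cKO replicate 2 it called 2 of 27 higher (against 3.06% of all genes) and 0 lower (against 3.03%). At that level DESeq2 called Uba6 and Ngly1 higher (against 3.98% of all genes) and limma-voom Uba1 alone (against 1.54%), both with all libraries.

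The genes called by edgeR without cKO replicate 2 were Uba1 and Ubqln2, which act upstream of the proteasome. Uba1, the main enzyme that activates ubiquitin, had 24158, 270 and 22923 counts in cKO replicates 1 to 3 and 10949, 13130 and 12729 counts in control. Ubqln2, which carries ubiquitinated proteins to the proteasome, had 6553, 0 and 4390 counts in cKO and 2190, 2066 and 1917 counts in control. For both, cKO replicates 1 and 3 were above every control, while cKO replicate 2 was below in Ubqln2 and, in CPM, for Uba1 too. Over the 5 deeper libraries the log2 fold change was 1.01 for Uba1 (SE 0.22, edgeR adjusted p = 0.689) and 1.46 for Ubqln2 (SE 0.28, edgeR adjusted p = 0.652). With all libraries it was 0.58 (SE 0.63, edgeR adjusted p = 1) and 0.87 (SE 1.32, edgeR adjusted p = 1), and limma-voom gave 1.001 for Uba1 (SE 0.16, adjusted p = 0.0161).

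The regulators of proteasome genes did not differ past the test. Nfe2l1 had 1752, 0 and 1481 counts in cKO replicates 1 to 3 and 3620, 964 and 1769 counts in control. The genes of the list with the smallest p in the fit of all 6 libraries were Uba6 and Ngly1 above 0 and Rps27a and Vcp below. Uba6, a second ubiquitin-activating enzyme, had 732, 449 and 700 counts in cKO and 517, 943 and 768 counts in control, so that cKO replicate 2 was the highest library in CPM. Ngly1, which processes Nfe2l1, had 873, 147 and 287 counts in cKO and 703, 191 and 285 counts in control. Rps27a, a ubiquitin and ribosomal fusion gene, had 9, 0 and 13 counts in cKO and 173, 119 and 21 counts in control, and Vcp, the segregase that extracts ubiquitinated proteins, had 3, 0 and 102 counts in cKO and 439, 101 and 101 counts in control. Near copies were searched for the proteasome genes alone. The part of reads with several alignments in the low counts of this wider list was not tested.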

How the data were processed

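Libraries of total RNA (6) were made with the QuantSeq 3′ mRNA-Seq kit, per the labels' protocols. What the authors deposited are raw counts per gene from featureCounts 2.0.0 on the Ensembl 104 annotation of GRCm39, per the file headers. The command set no strand or multi-mapping option, so counting was unstranded and reads with several alignments were left out by default. The submitters' processing notes name STAR, FastQC and DESeq2 but not what each was used for.

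A table of gene names gave symbols for 52083 of 55416 identifiers. Genes kept by filterByExpr (12833) were scaled by TMM and tested in edgeR 4.0.16 (R 4.3.3) by a robust glmQLFit and a two-sided glmQLFTest of cKO against control, with Benjamini-Hochberg adjustment over all genes and a threshold of 0.05. The SE is the log2 fold change divided by the square root of F. CPM used total counts without TMM. Limits of 0 are 3 counts, and intervals and limits cover counting error only. The design, which gives no batch, had no covariate. The alternatives tried were limma-voom 3.58.1, DESeq2 1.42.0, scaling by RLE or upper quartile, other filters, a threshold of 0.1, the replicate number as a block and leaving out each library. Near copies were found with blastn 2.17.0 among GENCODE M21 transcripts.

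Named genes were the 6 with the smallest p per direction, the highest and lowest of each class, the proteolytic and immunosubunits, and members with 0 counts in 1 deeper library and 100 or more in another; Psma6, Psmd1, Psmd4, Psmd14, Psma2, Psmb3 and others outside this rule were named after their values were seen. The members and lists were chosen with earlier results of these data known.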

Additional observations from a re-analysis of the deposited data

How the results depend on the processing

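No alternative called a proteasome gene at an adjusted p under 0.05; the lowest adjusted p of a member ran from 0.142 in DESeq2 to 1. Over all genes, 1 was called higher with TMM in edgeR, against 14 with RLE scaling, 0 with upper-quartile scaling, 7 in DESeq2, 6 in limma-voom, 22 without a filter, 2 with at least 5 CPM in 3 libraries and 0 with the replicate block. Lower calls were 1, against 2 with RLE scaling, 0 with upper-quartile scaling, 52 in DESeq2 and 2 in limma-voom; with the replicate block there was 1. Leaving out 1 library gave 0 to 6 genes higher and 1 lower each time. Whether the replicate numbers mark pairs is not in the labels. Deviations from the group mean of log2 CPM correlated at 0.079, 0.051 and 0.011 between same-numbered libraries. Libraries of different number gave -0.068 to 0.013, and 5 of 6 libraries correlated best with their own number. The block left 0 proteasome genes called. Scaling moved the median log2 fold change of all genes from -0.44 (TMM) to -0.28 (RLE) and -0.01 (upper quartile), and limma-voom, another test, gave -0.75; that of the proteasome genes was -0.44, -0.25, -0.05 and -1.04 under the same settings. Single genes that were high in cKO replicate 2 moved widely, as Psma3 from 2.90 to 7.97 with upper-quartile scaling and 1.0 in limma-voom. The summed proteasome CPM of cKO over control was 0.843 without cKO replicate 2, 1.04 without cKO replicate 1 and 1.003 without cKO replicate 3, so its side of 1 rests on single cKO libraries. Directions reversed for Psmd9 (-0.49 without cKO replicate 2, up to 2.61 without other libraries) and Psmb2 (-0.41 in limma-voom, -0.53 without cKO replicate 2, up to 1.24 without other libraries). The mean control SD between core subunits was 1.87, against 2.34 with a pseudocount of 0.1, 1.55 with 5, 1.95 without genes that share their last 500 exon bases and, chosen after seeing the data, 0.929 without near copies. In cKO replicate 2, 3 counts equal 5.28 CPM, and 3651 genes had a count, against 14047 to 16252 in the deeper libraries. Its zeros include genes expected far above 3 counts, such as Psmd13 with 0 where 180 were expected. The limit of 3 counts, which covers counting error only, may therefore not bound these zeros. The common biological coefficient of variation of the 6-library fit was 1.34, so a missed call does not show that levels were alike.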

Other observations

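Genes whose symbols begin like those of the proteasome but fall outside the rule were also counted. Psmb6-ps2, a pseudogene of Psmb6 by its name, had 523, 312 and 207 counts in cKO replicates 1 to 3 and 432, 203 and 607 counts in control, so it was counted in cKO replicate 2 where Psmb6 itself had 3 counts. Psme2b, the near copy of Psme2, had 3, 0 and 81 counts in cKO and 414, 51 and 232 counts in control. Psmc3ip, which encodes a protein of meiotic recombination and no proteasome subunit, had 142, 0 and 24 counts in cKO and 0, 73 and 2 counts in control. None of these was in a comparison.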
